A study of Mus musculus with 6 samples.

Results

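The 8 genes described here, Cspg4, Pdgfrb, Abcc9, Kcnj8, Rgs5, Higd1b, Trpc6 and Postn, are genes used to mark pericytes, and they were taken by symbol from the 49568 gene symbols in the deposited RNA-sequencing count table of mouse lung. Whole lungs of 3 TNF-Tg and 3 WT female mice, all 4 months old and on a C57BL/6 background, were sequenced, with 1 library for each mouse. The TNF-Tg mice carried 1 copy of a human TNF transgene and came from a single transgenic line, and their WT littermates carried none. No other allele or treatment separated the groups, so every comparison below is TNF-Tg against WT at 1 age, in 1 sex and in 1 line.

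Pericytes are the mural cells that wrap capillaries and share a basement membrane with the endothelium. Endothelial cells recruit them with PDGF-B, which acts on the receptor encoded by Pdgfrb, and the pair of cell types then exchange angiopoietin, Notch and TGF-beta signals that keep capillaries stable. In the lung, pericytes lie along the alveolar capillaries and small arteries, and they are studied in pulmonary hypertension because they can help to muscularize vessels. In RNA from whole lung, fewer cells of a type and less RNA per cell cannot be told apart.

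The total counts were between 25396923 and 30049463 in the TNF-Tg lungs and between 31400978 and 32529408 in the WT lungs, and 3 counts corresponded to 0.0922 to 0.118 CPM, the usual count scaled to the library total. All 6 markers of lung epithelium on the tissue list were detected in every lung, with 286171 to 536883 counts for Sftpc, the gene of surfactant protein C. Of the 6 libraries, 3 stood apart. The first TNF-Tg lung had 5.22% of its counts in Gm42418, a row known to collect ribosomal RNA, against 0.0774% to 0.274% in the other lungs. The first WT lung held 56570 counts of the squamous keratin Krt4 and 24678 counts of the skeletal muscle actin Acta1, against at most 8 and at most 433 in the other lungs. The third TNF-Tg lung had a summed level of fat cell markers of 142.9 CPM, against 9.804 and 7.587 CPM in the other TNF-Tg lungs and 76.33 to 177.2 CPM in the WT lungs. Calls and signs of the 8 genes that change without these libraries are given with and without them. Mouse Tnf had 106, 213 and 405 counts in the TNF-Tg lungs and 16, 14 and 35 in the WT lungs, but the transgene is human, so this row does not check the labels.

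The 8 genes moved in different directions. Rgs5, Postn and Kcnj8 were higher in the TNF-Tg lungs, Cspg4 was lower, and Pdgfrb, Abcc9, Higd1b and Trpc6 did not pass the test. A gene was called when its adjusted p was under 0.05 in the quasi-likelihood test of edgeR, adjusted by Benjamini-Hochberg across the 19199 genes tested, a set in which all 8 were present. Of the 8, 3 were called higher, or 37.5%, beside 24.0% of all genes tested, and 1 was called lower, or 12.5%, beside 23.4%. In either direction, 4 of the 8 were called, or 50%, beside 47.4% of all genes. The values of the 2 genotypes did not overlap for 5 of the 8, or 62.5%, beside 58.7% of all genes. The median log2 fold change was 0.04 over the 8 genes and 0.03 over all genes tested. These shares are close to the background, and the single genes, rather than the set, are therefore described.

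Rgs5 encodes a regulator of G protein signaling that shortens the signal of vasoactive receptors, and it is widely used to mark pericytes. The gene is on the plus strand of chromosome 1 (chr1:169655501-169695813, GRCm38). It had 929, 1922 and 1619 raw counts in the TNF-Tg lungs and 280, 122 and 229 in the WT lungs. After normalization to library size these were 1225, 1988 and 1528 against 267.6, 116.9 and 203.5 normalized counts. The lowest TNF-Tg lung was far above the highest WT lung. The mean was 1580 ± 384 normalized counts in TNF-Tg and 196 ± 75.6 in WT (SD, n = 3 each). Rgs5 rose 8.06-fold, with a log2 fold change of 3.01 (SE 0.30, 95% confidence interval 2.31 to 3.71) and an adjusted p of 0.000143 by edgeR's quasi-likelihood test. It ranked 1089 of the 19199 genes by p. With any 1 lung left out, its log2 fold change was between 2.74 and 3.27.

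**Figure D1:**
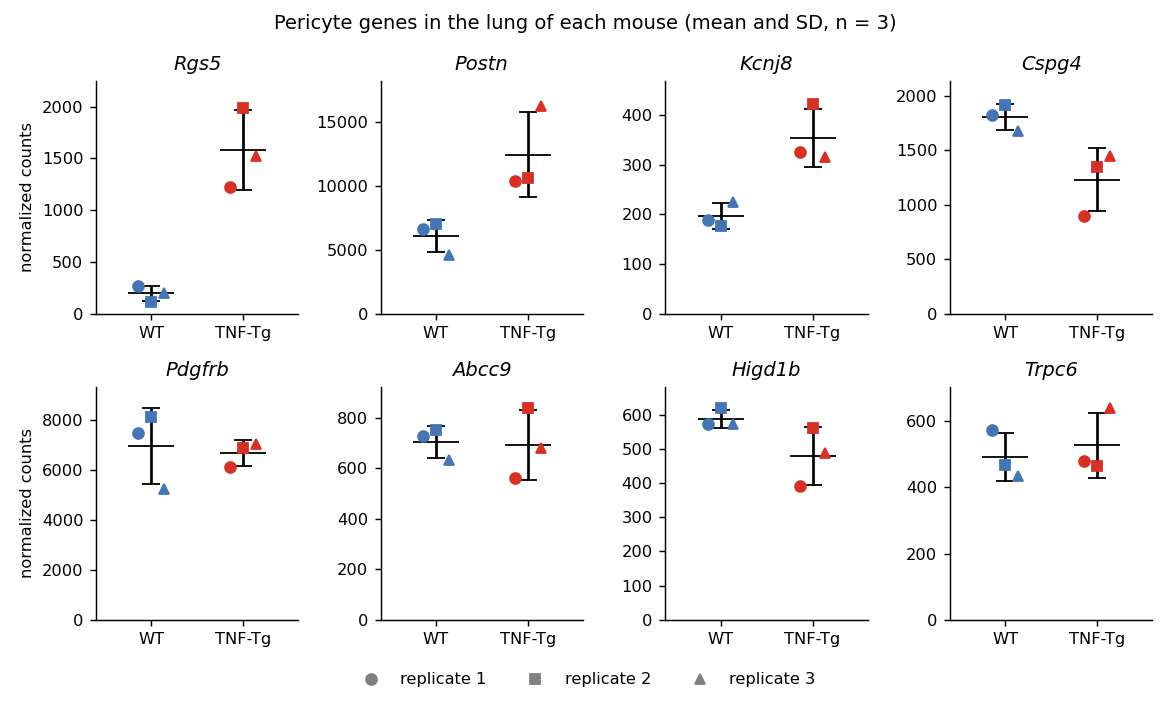
Normalized counts (y axis, from 0) of the 8 pericyte genes in each lung, WT in blue and TNF-Tg in red, with horizontal lines for the mean, bars for the SD (n = 3) and marker shapes for the replicate number. All TNF-Tg lungs are above all WT lungs for Rgs5, Postn and Kcnj8 and below them for Cspg4 and Higd1b, and the groups overlap for Pdgfrb, Abcc9 and Trpc6.

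Rgs5 belongs to the R4 subfamily of RGS proteins, small members that all act on G protein alpha subunits. Of 9 R4 genes on the list, 7 could be tested, 3 were higher in TNF-Tg and 4 were not called. The other two that rose were Rgs16 and Rgs1. Rgs16 had 400, 368 and 589 counts in TNF-Tg against 13, 18 and 58 in WT, a log2 fold change of 4.15 (SE 0.47, adjusted p = 0.000239 by edgeR). Rgs1, which is abundant in lymphocytes, had 603, 157 and 112 counts against 22, 25 and 39, a log2 fold change of 3.72 (SE 0.77, adjusted p = 0.00517 by edgeR). Its size rested on the first TNF-Tg lung, without which Rgs1 was 4.89-fold higher (log2 fold change 2.29, adjusted p = 0.0017 by edgeR). Rgs16 was at 5.02 on the log2 scale without the third WT lung. Rgs3 and Rgs2 were not called, at log2 fold changes of -0.10 and 0.61, although Rgs2 was called higher without the second TNF-Tg lung (adjusted p = 0.031 by edgeR) or the third WT lung (adjusted p = 0.0265 by edgeR). The summed level of the 9 genes was 218.1 to 264.7 CPM in TNF-Tg and 150.4 to 170.1 CPM in WT.

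Leukocyte markers moved with these genes. On the leukocyte list, 6 of 8 markers were higher and 1 was lower in TNF-Tg, with a summed level of 3339 to 3676 CPM against 924.7 to 1154 CPM, and none of its markers was at 0. Their part in the higher counts of Rgs5, Rgs1 and Rgs16 was not tested.

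Kcnj8 and Abcc9 encode the 2 parts of the vascular ATP-sensitive potassium channel: Kcnj8 the pore subunit Kir6.1, and Abcc9 the regulatory subunit SUR2. The channel opens when ATP falls and relaxes mural cells. The genes are neighbors on the minus strand of chromosome 6 (Kcnj8 at chr6:142564837-142571614 and Abcc9 at chr6:142587862-142702315, GRCm38), 16247 bp apart with 0 annotated genes between them. Kcnj8 had 246, 407 and 333 counts in TNF-Tg and 197, 183 and 253 in WT, or 324.4, 420.9 and 314.3 against 188.3, 175.4 and 224.8 normalized counts. All TNF-Tg lungs were above all WT lungs once the lower depth of the TNF-Tg libraries was taken into account. Kcnj8 rose 1.8-fold, with a log2 fold change of 0.85 (SE 0.17, 95% confidence interval 0.45 to 1.25, adjusted p = 0.0047 by edgeR's quasi-likelihood test), and it stayed between 0.70 and 0.95 with any 1 lung left out.

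Abcc9 had 425, 810 and 718 counts in TNF-Tg and 760, 785 and 710 in WT, or 560.4, 837.6 and 677.8 against 726.2, 752.3 and 630.9 normalized counts. The 2 genotypes overlapped, with the lowest and the highest of the 6 values both in TNF-Tg lungs. Its log2 fold change was -0.02 (SE 0.16, 95% confidence interval -0.39 to 0.34, adjusted p = 0.921 by edgeR). Its sign turned to 0.07 without the first TNF-Tg lung and to 0.09 without the first lung of both genotypes. An antisense gene, 5330439B14Rik, shares 158 exonic bases with Abcc9, and it had 0 to 2 counts per lung.

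The count of Kcnj8 divided by that of Abcc9 in the same lung, a ratio that library depth does not touch, was 0.579, 0.502 and 0.464 in TNF-Tg and 0.259, 0.233 and 0.356 in WT. Every TNF-Tg lung had a higher ratio than every WT lung. The difference gave p = 0.1 in a two-sided exact permutation test, which is the smallest p that 3 lungs against 3 allow, and an adjusted p of 0.117 over the 7 ratios compared. The 7 pairs were chosen after the counts had been seen.

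The other channel family members, Kcnj11 (Kir6.2) and Abcc8 (SUR1), form the channel of beta cells and neurons. Kcnj11 had 34, 46 and 59 counts in TNF-Tg and 208, 145 and 103 in WT, and it fell by 1.53 on the log2 scale (SE 0.30, adjusted p = 0.00407 by edgeR). Abcc8 had at most 112 counts in any lung and a log2 fold change of -0.57 (adjusted p = 0.107 by edgeR, and 0.0478 without the third WT lung). Among the 4 subunits, 1 was thus higher, 1 lower and 2 were not called.

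Postn encodes periostin, a secreted matrix protein made by activated mesenchymal cells. It is expressed by fibroblasts as well as by pericytes. It lies on the plus strand of chromosome 3 (chr3:54361109-54391037, GRCm38). It had 7894, 10320 and 17262 counts in TNF-Tg and 6945, 7299 and 5197 in WT, or 10410, 10670 and 16300 against 6637, 6995 and 4618 normalized counts. The 2 genotypes did not overlap, and the third TNF-Tg lung, the one with the fat cell markers, was the highest. The mean was 12460 ± 3325 against 6083 ± 1282 normalized counts (SD, n = 3 each). Postn rose 2.05-fold, with a log2 fold change of 1.03 (SE 0.22, 95% confidence interval 0.53 to 1.54, adjusted p = 0.00585 by edgeR's quasi-likelihood test). With any 1 lung left out it was between 0.78 and 1.14. The lowest of these, 0.78, was without the third TNF-Tg lung (adjusted p = 0.0127 by edgeR).

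Of 12 periostin relatives and matrix partners, including Postn, 3 were higher, 3 were lower and 6 were not called, with a median log2 fold change of 0.12. Tgfbi, the paralog of periostin, had 5256, 7680 and 6594 counts in TNF-Tg against 2763, 3281 and 3240 in WT, a log2 fold change of 1.28 (adjusted p = 0.000116 by edgeR). Col1a1, the gene of the collagen I alpha chain that periostin binds, went the other way, with 4930, 5422 and 6949 counts against 16020, 20427 and 13789 and a log2 fold change of -1.34 (adjusted p = 0.000577 by edgeR). Stab1, a scavenger receptor of macrophages and sinusoidal endothelium with the same fasciclin domain, rose by 0.99 on the log2 scale. Fn1, the gene of fibronectin, and Itgb5, an integrin chain that periostin engages, were not called, at 0.11 and -0.06.

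Cspg4 encodes NG2, the chondroitin sulfate proteoglycan on the surface of pericytes and of oligodendrocyte precursors. It is on the plus strand of chromosome 9 (chr9:56865033-56899870, GRCm38). It had 682, 1297 and 1534 counts in TNF-Tg and 1911, 1996 and 1890 in WT, or 899.2, 1341 and 1448 against 1826, 1913 and 1679 normalized counts. All TNF-Tg lungs were below all WT lungs, with the first TNF-Tg lung the lowest. Cspg4 fell by 0.55 on the log2 scale (SE 0.17, 95% confidence interval -0.94 to -0.17, adjusted p = 0.0268 by edgeR's quasi-likelihood test). The call was lost without the first WT lung (adjusted p = 0.0546), without the second WT lung (adjusted p = 0.0824) and without the first lung of both genotypes (a log2 fold change of -0.40, adjusted p = 0.0758), all by edgeR.

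Pdgfrb encodes the PDGF receptor beta, on which pericyte recruitment depends, and it is on the plus strand of chromosome 18 (chr18:61045150-61085061, GRCm38). It had 4633, 6676 and 7483 counts in TNF-Tg and 7821, 8494 and 5888 in WT, or 6109, 6904 and 7064 against 7474, 8141 and 5232 normalized counts. The lowest and the highest of the 6 normalized counts were both in WT lungs. Its log2 fold change was -0.05 (SE 0.17, 95% confidence interval -0.44 to 0.33, adjusted p = 0.811 by edgeR), and the sign turned to 0.07 without the second WT lung and to 0.02 without the first lung of both genotypes.

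Among the 7 PDGF ligands and receptors, 1 was higher and 1 was lower. The number called was 1 in place of 2 without any 1 of the TNF-Tg lungs, the first WT lung or the second WT lung. Pdgfc, a ligand of PDGF receptor alpha, had 165, 278 and 262 counts in TNF-Tg and 59, 43 and 61 in WT and rose 4.95-fold (log2 fold change 2.31, SE 0.20, adjusted p = 7.4e-05 by edgeR). Pdgfra, the PDGF receptor that marks fibroblasts, fell by 0.66 on the log2 scale (adjusted p = 0.0254 by edgeR), and this is the call that was lost. In those 5 fits its log2 fold change was -0.71 to -0.52, with adjusted p of 0.0545 to 0.0908 by edgeR. Pdgfb, the endothelial ligand of PDGF receptor beta, had 2571, 3012 and 5183 counts against 3085, 3222 and 3529 and was not called (log2 fold change 0.31, adjusted p = 0.153 by edgeR).

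Higd1b encodes a HIG1 domain protein of mitochondria and is used as a marker of lung pericytes. It is on the plus strand of chromosome 11 (chr11:102835849-102838040, GRCm38). It had 297, 542 and 516 counts in TNF-Tg and 600, 645 and 643 in WT, or 391.6, 560.5 and 487.1 against 573.4, 618.2 and 571.4 normalized counts. The WT lungs were all above the TNF-Tg lungs, but the closest pair differed by little and the test did not call it. Its log2 fold change was -0.29 (SE 0.15, 95% confidence interval -0.63 to 0.04, adjusted p = 0.134 by edgeR). The other HIG1 domain genes that could be tested were not called either, with Higd1a at -0.06 and Higd2a at 0.26 on the log2 scale.

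Trpc6 encodes a cation channel that admits calcium after receptor stimulation and is found in mural cells of the lung. It is on the plus strand of chromosome 9 (chr9:8544142-8680741, GRCm38). It had 363, 449 and 678 counts in TNF-Tg and 599, 487 and 489 in WT, or 478.6, 464.3 and 640 against 572.4, 466.7 and 434.5 normalized counts. The genotypes overlapped. The log2 fold change was 0.10 (SE 0.17, 95% confidence interval -0.28 to 0.49, adjusted p = 0.635 by edgeR). The sign turned to -0.07 without the third TNF-Tg lung. Of its family, Trpc1 was not called, at -0.37 on the log2 scale.

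Other ratios of counts within a lung were computed against Pdgfrb, Cspg4 and Higd1b. The count of Rgs5 was 0.201, 0.288 and 0.216 of that of Pdgfrb in TNF-Tg and 0.0358, 0.0144 and 0.0389 in WT. Against Higd1b it was 3.13, 3.55 and 3.14 in TNF-Tg and 0.467, 0.189 and 0.356 in WT, so that Rgs5 had more counts than Higd1b in every TNF-Tg lung and fewer in every WT lung. Postn was 1.55 to 2.31 times Pdgfrb in TNF-Tg and 0.859 to 0.888 times in WT. Cspg4 was 0.147 to 0.205 of Pdgfrb in TNF-Tg and 0.235 to 0.321 in WT. Each of these ratios separated the genotypes and gave the smallest exact permutation p of 0.1, adjusted to 0.117. Higd1b over Pdgfrb overlapped between the genotypes, with an exact permutation p of 0.3.

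Levels of different genes were compared per length, as RPKM, the counts divided by the exon length in kilobases and by the library total in units of the CPM. In WT lungs Pdgfrb was the highest, at 42.1 ± 7.85 RPKM (SD, n = 3), followed by Postn at 23.2 ± 4.16 and Higd1b at 23.1 ± 0.484. Cspg4 was at 5.04 ± 0.141, Trpc6 at 3.23 ± 0.463, Abcc9 at 2.795 ± 0.158, Kcnj8 at 2.58 ± 0.437 and Rgs5, the lowest, at 1.45 ± 0.576 RPKM. The ranges of neighbors in this order over lungs overlapped for Postn and Higd1b and for Abcc9 and Kcnj8.

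In TNF-Tg lungs the order of the RPKM levels was Postn (47.8 ± 17.8), Pdgfrb (40.3 ± 6.83), Higd1b (18.7 ± 4.225), Rgs5 (11.45 ± 3.09), Kcnj8 (4.54 ± 0.758), Trpc6 (3.46 ± 0.992), Cspg4 (3.43 ± 1.10) and Abcc9 (2.72 ± 0.641). Rgs5 thus went from rank 8 in WT to rank 4 in TNF-Tg. Only Pdgfrb against Higd1b and Rgs5 against Kcnj8 were separate among the neighbors in this order, since the ranges of all other neighbors overlapped. RPKM depends on the length used. With the longest transcript in place of the union of exons, Postn was at 38.65 RPKM in WT and 79.63 in TNF-Tg and Trpc6 at 5.02 and 5.37, and Rgs5 was again the lowest in WT, at 1.605, and the fourth in TNF-Tg, at 12.71.

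**Figure D2:**
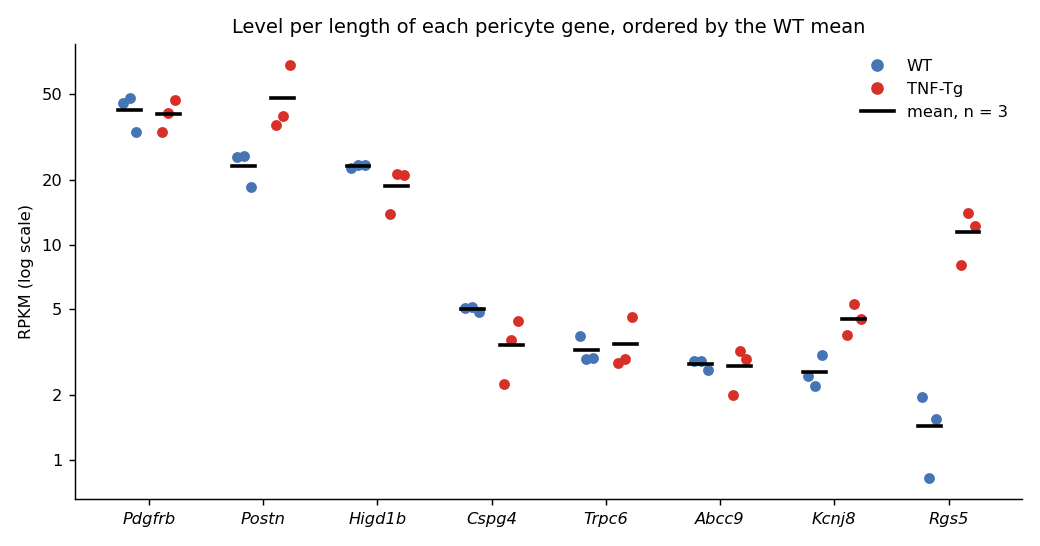
RPKM (y axis, log scale) of the 8 pericyte genes in each lung, WT in blue and TNF-Tg in red, ordered by the WT mean, with a black line for the mean of 3 lungs. Rgs5 has the lowest WT mean, 1.45 RPKM, and a TNF-Tg mean of 11.45 RPKM, while Pdgfrb is near 40 in both, at 42.1 and 40.3 RPKM.

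The sequence before each gene was searched for a few motifs, as a description of the letters only. The 250 bases before the start of transcription were taken from RefSeq (GRCm38.p6), and such windows were obtained for 6 of the 8 genes. None was obtained for Pdgfrb or Higd1b, which does not show that RefSeq lacks an entry for them. Postn had 2 entries, and the one beside the annotated start of the gene is shown. The windows of the 3 genes that rose and of Abcc9, the neighbor of Kcnj8 that was not called, are shown 5′ to 3′ on the strand of the gene, and capitals mark a motif match on either strand. They are Rgs5 (chr1:169655251-169655500, plus strand), Kcnj8 (chr6:142571615-142571864, minus strand), Abcc9 (chr6:142702275-142702524, minus strand) and Postn (chr3:54360857-54361106, plus strand).
Rgs5: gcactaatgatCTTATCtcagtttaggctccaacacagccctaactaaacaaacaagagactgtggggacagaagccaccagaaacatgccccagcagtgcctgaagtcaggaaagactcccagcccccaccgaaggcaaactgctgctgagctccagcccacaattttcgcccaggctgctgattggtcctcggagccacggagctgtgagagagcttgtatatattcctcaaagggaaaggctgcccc
Kcnj8: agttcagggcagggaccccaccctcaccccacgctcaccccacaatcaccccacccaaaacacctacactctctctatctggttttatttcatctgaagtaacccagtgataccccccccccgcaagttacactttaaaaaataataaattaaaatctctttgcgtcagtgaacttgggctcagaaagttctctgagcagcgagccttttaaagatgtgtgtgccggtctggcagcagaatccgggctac
Abcc9: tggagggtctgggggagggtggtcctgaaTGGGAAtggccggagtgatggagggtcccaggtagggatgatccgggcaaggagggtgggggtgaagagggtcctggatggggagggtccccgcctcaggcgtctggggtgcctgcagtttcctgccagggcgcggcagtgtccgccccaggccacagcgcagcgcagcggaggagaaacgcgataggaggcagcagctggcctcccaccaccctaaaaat
Postn: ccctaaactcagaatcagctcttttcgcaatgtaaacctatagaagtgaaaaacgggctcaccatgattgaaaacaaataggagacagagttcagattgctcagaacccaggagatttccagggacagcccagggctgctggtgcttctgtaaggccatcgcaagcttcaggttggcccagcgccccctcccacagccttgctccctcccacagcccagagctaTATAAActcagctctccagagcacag

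The capitals in the Rgs5 window mark GATAAG, the core of GATA factor sites, read on the other strand 239 to 234 bases before the start. This motif was in 6.55% of 32851 RefSeq promoter windows of this length. The Abcc9 window held TGGGAA, the core of sites of the Notch effector RBPJ, at 221 to 216 bases before the start, as did 21.6% of all windows. The Postn window held TATAAA, the TATA box, at 26 to 21 bases before the start, as did 12.4% of all windows. No searched motif was in the Kcnj8 window. The other motifs searched on both strands were TGANTCA (AP-1), in 6.75% of all windows, the NF-kB site, in 3.9%, and the CArG box, in 1.47%. Of these, the CArG box was in the Trpc6 window, and neither TGANTCA nor the NF-kB site was in a window of the 6 genes. The Abcc9 window was 66.8% G and C with 12 CG pairs, that of Kcnj8 49.2% with 6, and that of Rgs5 53.6% with 4, beside medians of 52.4% and 6 over all windows.

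Other genes of pericytes and mural cells fell more often than they rose. Of 15 such genes, 8 were lower (53.3%, beside 23.4% of all genes tested), 2 were higher (13.3%, beside 24.0%) and 5 were not called. The median log2 fold change was -0.74, beside 0.04 for the 8 pericyte genes and 0.03 for all genes tested. Across the 16 alternatives run, 8 to 13 of the 15 were called in either direction. The largest falls were in Kcnk3, Cox4i2, Tbx2 and Fam162b. Kcnk3, the potassium channel TASK-1, which is mutated in some heritable pulmonary hypertension, had 465, 576 and 815 counts in TNF-Tg and 2235, 2171 and 2213 in WT and fell by 1.64 on the log2 scale (SE 0.12, adjusted p = 2.9e-05 by edgeR). Cox4i2, a lung isoform of a cytochrome oxidase subunit, had 329, 581 and 637 counts against 1467, 1591 and 1942 and fell by 1.51 (adjusted p = 0.000135 by edgeR). Tbx2, a mesenchymal transcription factor, fell by 1.37 and Fam162b by 1.30. Mcam (CD146) and Gucy1a3, a subunit of the nitric oxide receptor, had the highest levels of the genes not called, at -0.15 and -0.55, and Gucy1a3 was called lower without the third TNF-Tg lung (adjusted p = 0.0429 by edgeR) or the third WT lung (adjusted p = 0.00822 by edgeR). The 2 that rose, named after their values were seen, were Ebf1, a transcription factor also of B cells, at 0.96, and Lamc3, a laminin chain, at 0.40. Lamc3 lost its call without any 1 of the TNF-Tg lungs (adjusted p = 0.134, 0.0698 and 0.0542 by edgeR). The summed level of the 15 genes was 683.4 to 1037 CPM in TNF-Tg and 1237 to 1383 CPM in WT, without overlap. That of the 8 pericyte genes, most of it from Postn and Pdgfrb, was 609.1 to 1036 CPM against 471.3 to 615.2 CPM, with overlap.

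**Figure D3:**
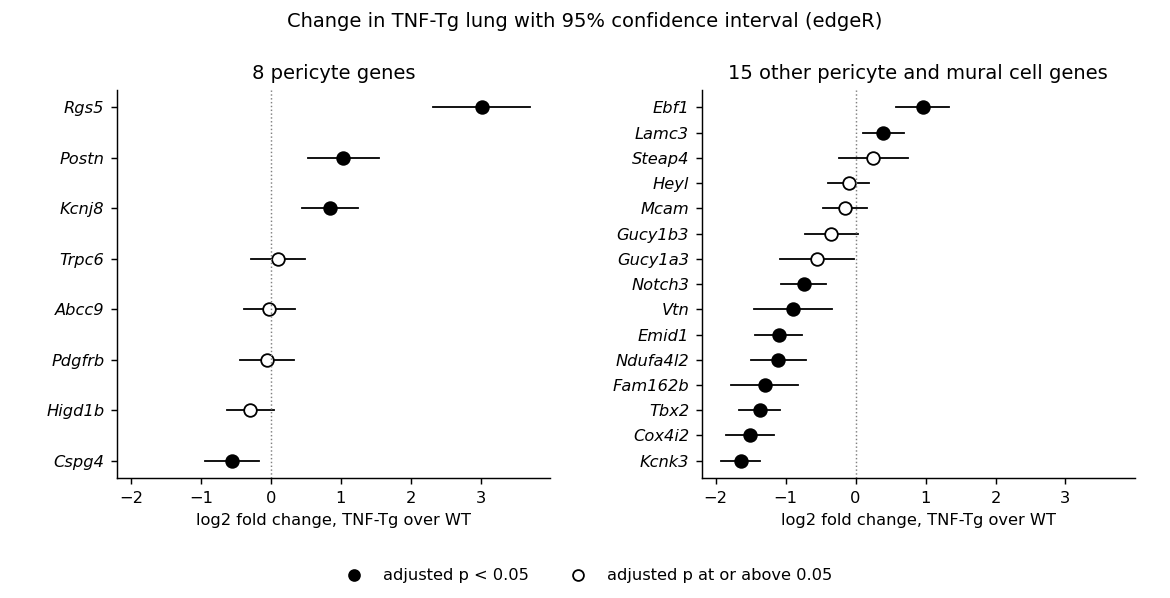
Log2 fold change of TNF-Tg over WT (x axis) with its 95% confidence interval for the 8 pericyte genes (left) and 15 other pericyte and mural cell genes (right), filled where the adjusted p is under 0.05 in edgeR. Rgs5 at 3.01 is the farthest to the right, and 8 of the 15 other genes are filled below 0.

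Signals that pass between endothelium and pericytes fell more often than they rose. Of 15 genes, 8 fell (53.3%, beside 23.4% of all genes tested), 2 rose (13.3%, beside 24.0%) and 5 were not called. The median log2 fold change was -0.85. Tek and Tie1 of this list are also counted among the endothelial markers below. Tek, the angiopoietin receptor of endothelium, had 1845, 2124 and 2864 counts in TNF-Tg and 10789, 9654 and 9685 in WT and fell by 1.94 on the log2 scale (SE 0.12, adjusted p = 1.7e-05 by edgeR). Acvrl1, the endothelial BMP9 receptor, fell by 1.83, Hbegf, a ligand of the EGF receptor, by 1.56, and the Notch ligand Dll4 by 1.29. Tgfbr2 and S1pr3, receptors of TGF-beta and sphingosine 1-phosphate, were not called, at 0.05 and -0.11. The 2 that rose, named after their values were seen, were Tgfbr1 at 0.74 and Tgfb1 at 0.54.

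The markers of neighboring cells moved with genotype as well. All 10 endothelial markers were lower, with a summed level of 1614 to 2146 CPM in TNF-Tg against 3910 to 4383 CPM in WT and a median log2 fold change of -1.45. Of 8 vascular smooth muscle markers 6 were lower, at 621.7 to 744.5 CPM against 1151 to 1428 CPM. All 8 alveolar fibroblast markers were lower, at 846.8 to 954.1 CPM against 2708 to 3279 CPM, as were 6 of 8 adventitial fibroblast markers, at 334.3 to 382.1 CPM against 574.9 to 657.3 CPM, and all 8 cardiac muscle markers, at 320 to 397.9 CPM against 1222 to 1554 CPM. Among 8 myofibroblast markers 2 were higher, Aspn and Tgfbi, and 6 were lower. Their median log2 fold change was -1.15, but their summed level, most of it from Tgfbi, was higher in TNF-Tg, at 254.5 to 307.9 CPM against 174.4 to 194.7 CPM, without overlap. Of the skeletal muscle, squamous epithelium and fat cell markers that could be tested, 2 of 7, 4 of 6 and 1 of 5 were called lower. These 3 counts rest on single lungs, since with 1 lung left out in turn the number called ran from 0 to 7 for skeletal muscle, from 1 to 6 for squamous epithelium and from 0 to 5 for fat cells. Without the first TNF-Tg lung the numbers were 0, 2 and 0, without the third TNF-Tg lung 0, 1 and 5, and without the first WT lung 1, 3 and 1. Of the 6 lung epithelium markers, 5 were lower. No marker of the smooth muscle, endothelial or fibroblast lists was at 0 in any lung. Their part in the values of the pericyte genes was not tested.

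**Figure D4:**
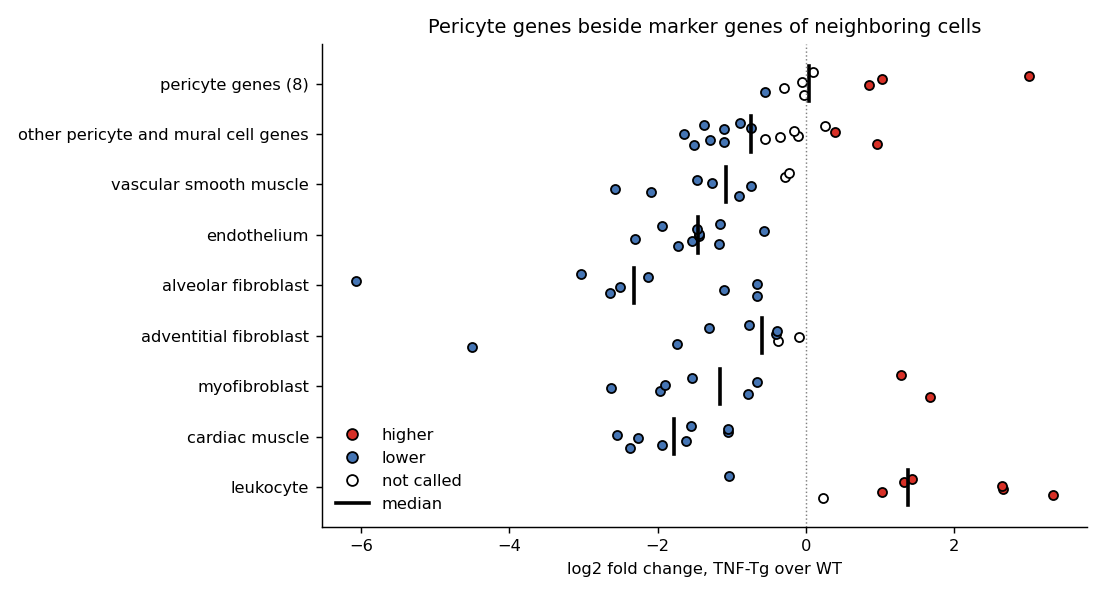
Log2 fold change of TNF-Tg over WT (x axis) of each gene tested in 9 lists, with 1 point per gene, red for higher, blue for lower and white for not called, and a black line for the median of the list. The median of the 8 pericyte genes is 0.04, that of endothelium is -1.45 and that of leukocytes is 1.38.

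The 8 pericyte genes were set within each lung against the endothelial, smooth muscle, alveolar and adventitial fibroblast, and other pericyte and mural cell lists. Against these they were relatively higher in TNF-Tg. The leukocyte, myofibroblast and cardiac muscle lists were not compared in this way. Their mean log2 CPM minus that of the endothelial list was -1.54, -1.18 and -1.32 in the TNF-Tg lungs and -3.28, -3.36 and -3.35 in the WT lungs. Against the other pericyte and mural cell genes, the difference in mean log2 CPM was 0.37, 0.58 and 0.42 in TNF-Tg and -0.59, -0.72 and -0.70 in WT. The groups did not overlap in either case, nor against the smooth muscle and fibroblast lists. The shift against smooth muscle, 1.68 by the mean of the lists, was 0.86 by the median, and that against alveolar fibroblasts was 2.92 by the mean and 1.74 by the median. These differences hold the falls of the other lists and the rises of Rgs5, Postn and Kcnj8 together, so they describe a relative level.

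The pericyte genes varied among themselves over the 6 lungs. On the log2 CPM scale Kcnj8 and Rgs5 had a Pearson r of 0.951, Cspg4 and Higd1b of 0.925 and Rgs5 and Postn of 0.826, whereas Cspg4 and Rgs5 had -0.733 and Kcnj8 and Abcc9, the channel pair, 0.027. These are descriptions over 6 lungs that share 2 genotypes and their depths. The first TNF-Tg lung had the lowest normalized count of the 6 lungs for Cspg4, Abcc9 and Higd1b.

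The genes whose pattern over the 6 lungs was closest to each pericyte gene were taken by the root mean square difference of centered log2 CPM among 14991 genes. For Rgs5 the closest were Fam83f (0.281) and Tifa (0.319). The closest gene to Kcnj8 was Gm5566, followed by Dnajc2 and Gm6745, to Postn Cd209f, Ccna2 and Cdh2, and to Cspg4 Cyb5d1, Zfp689 and Taf1a. For the genes not called they were Dido1, Trio and Mtr for Pdgfrb, Zfp213, Amd-ps3 and Tango6 for Abcc9, Unc119b, AW209491 and Tbx6 for Higd1b, and Mex3c, Naif1 and Ercc6 for Trpc6. The other 7 pericyte genes were left out of each search. These lists rest on the measure chosen: by Pearson correlation, 0 of the 3 closest genes were shared for Rgs5, Cspg4 and Pdgfrb, 1 for Abcc9, Trpc6 and Postn, and 2 for Kcnj8 and Higd1b. No gene near Rgs5 was closer than 0.281, while Cyb5d1 was 0.0615 from Cspg4. Counts of the pseudogene-like rows Gm5566, Gm6745 and Amd-ps3 can hold reads of near-identical copies and are uncertain.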

How the data were processed

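Lungs were sequenced with poly(A)-selected stranded libraries (TruSeq Stranded mRNA, single-end reads of 100 bp). According to the submitters' processing notes the authors used Trimmomatic 0.36, STAR 2.5.2b, featureCounts and the genome GRCm38.p5. They deposited raw counts per gene symbol without normalization. The strand setting and gene annotation are not given in the sources used here.

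Counts were tested with edgeR 4.0.16 (R 4.3.3), filterByExpr, TMM scaling and the quasi-likelihood test on genotype alone. Each SE was the log2 fold change divided by the square root of F. Normalized counts are counts per TMM-scaled library times the mean of these libraries, and log2 CPM used a prior count of 2. RPKM used total counts and the exon union of GENCODE M21, which may not be the annotation the authors used. Gucy1a1 and Gucy1b1 were matched by RefSeq synonyms to Gucy1a3 and Gucy1b3. The scripts were tested on simulated data. Alternatives were DESeq2 1.42.0, limma-voom (limma 3.58.1), other scalings and filters, a replicate block and leaving out lungs.

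The 8 genes and the 19 lists were chosen with earlier results of these data known. Named from each list were up to 4 called genes with the largest change and up to 2 uncalled genes with the highest level, and for each pericyte gene its 3 nearest genes among genes whose log2 CPM averaged 1 or more. Counts are reads without molecular identifiers, so floors cover counting error only. Some genes that the naming rule gives are not reported here.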

Additional observations from a re-analysis of the deposited data

How the results depend on the processing

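Rgs5, Postn and Kcnj8 were called higher under all 16 alternatives run for the test, while Cspg4 was lower in all 16 and called in 12. It lost its call, leaving 0 pericyte genes called lower, with total counts in place of TMM (-0.56 on the log2 scale, with an adjusted p of 0.0531 by edgeR). The call was also lost without the first WT lung (adjusted p = 0.0546 by edgeR) and without the second WT lung (adjusted p = 0.0824 by edgeR). It was lost too when the first lung of both genotypes was left out, an alternative chosen after seeing the data (-0.40, adjusted p = 0.0758 by edgeR). That alternative gave log2 fold changes of 0.023 for Pdgfrb and 0.092 for Abcc9. Over it and the fits without any single lung, 2689 to 4571 genes and 3 pericyte genes were called higher and 0 to 1 pericyte genes lower, and log2 fold changes were -0.70 to -0.40 for Cspg4, -0.23 to 0.07 for Pdgfrb, -0.18 to 0.092 for Abcc9 and -0.072 to 0.26 for Trpc6. Abcc9 was 0.072 without the first TNF-Tg lung and 0.024 without the second WT lung, Trpc6 was -0.072 without the third TNF-Tg lung, and Pdgfrb was 0.07 without the second WT lung. The causes were not tested. Asking also for an absolute log2 fold change of at least 1 left 4320 genes (1980 higher and 2340 lower) and 2 pericyte genes, Rgs5 and Postn, with 0 lower. A replicate block on the numbers of the titles called 7686 genes and the same 4 pericyte genes. The mean correlation of deviations was -0.13 over 3 same-numbered pairs and 0.07 over 6 others. So few pairs cannot show whether the numbers pair the mice. DESeq2 called 9134 genes. RPKM levels rest on the length chosen. The longest transcript in place of the exon union raised those of every pericyte gene but Kcnj8, and most those of Cspg4, Trpc6 and Postn. At 3 lungs per genotype, intervals of the uncalled genes reached from -0.63 to 0.49 on the log2 scale. Groups of 3 lungs were too small to look for single outlying values.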
